A study of Homo sapiens with 6 samples.

Results

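The genes described here form the core of the human circadian clock and were followed in U-2 OS cells, a human osteosarcoma line, after knock-down of SFPQ. The set holds 10 of the 60664 genes in the count table: PER1, PER2, PER3, CRY1, CRY2, CLOCK, BMAL1, NR1D1, NR1D2 and DBP. They were chosen by name and found by gene identifier, with a rule that sets no limit on any measured value. Cells of both conditions were transfected with siRNA at 30 nM, with control siRNA in siCTRL and with siRNA against SFPQ in siSFPQ, and no other treatment or allele is named in the labels. RNA was sequenced from 3 replicate libraries per condition, 6 in all. The p-values therefore set a difference between conditions against the spread between these libraries. All 10 genes passed the filter of at least 10 counts over the libraries and were among the 29022 genes tested. U-2 OS is a single tumour-derived line, neither synchronisation nor the hour of harvest is given in the sources used here, and RNA was taken from whole cultures. A different phase of the clock and a different mean level, or fewer expressing cells and less RNA per cell, cannot be told apart in these data.

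The circadian clock is a feedback loop of transcription that runs in nearly every cell with a period of about a day. CLOCK and BMAL1 bind DNA as a pair at E-box sequences and activate the PER and CRY genes, whose proteins enter the nucleus and repress that pair. A second loop controls BMAL1 through short elements called ROREs, where ROR receptors activate and the REV-ERB receptors, encoded by NR1D1 and NR1D2, repress. DBP and its relatives TEF and HLF act at D-boxes, where NFIL3 competes with them as a repressor. SFPQ, NONO and PSPC1 form a family of RNA- and DNA-binding proteins, and SFPQ and NONO are known as components of nuclear PER protein complexes.

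The letters of these elements can be read in the promoters of the clock genes. The RefSeq promoter table (GRCh38.p14) covers 250 bases before to 50 bases after each annotated start and held 15 windows for the 10 genes, with at least 1 for each. Both strands were searched for the E-box CACGTG, its variant CACGTT, the D-box TTATGTAA and the RORE core TNGGTCA, and no 2 of the matches overlapped. Stretches of 30 bases around matches, chosen to show each type of element in the genes of the main loop, are given with the element in capitals, read 5′ to 3′ on the strand of the gene. An element that matched on the other strand appears as its reverse complement (AACGTG, TTACATAA or TGACCCA).
PER1 E-box, chr17:8152560-8152589, minus strand: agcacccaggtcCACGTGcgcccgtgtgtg
PER2 variant E-box, chr2:238288790-238288819, minus strand: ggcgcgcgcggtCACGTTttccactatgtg
CRY1 variant E-box, chr12:107093621-107093650, minus strand: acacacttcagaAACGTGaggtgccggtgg
CRY2 variant E-box, chr11:45847275-45847304, plus strand: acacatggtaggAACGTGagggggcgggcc
NR1D1 variant E-box, chr17:40100740-40100769, minus strand: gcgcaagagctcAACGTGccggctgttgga
CLOCK variant E-box, chr4:55546102-55546131, minus strand: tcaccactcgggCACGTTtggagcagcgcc
PER3 D-box, chr1:7784103-7784132, plus strand: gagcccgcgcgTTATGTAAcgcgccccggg
BMAL1 RORE core, chr11:13277540-13277569, plus strand: ccaTTGGTCAgcggcctctctagccgccac
NR1D2, which holds a D-box, 2 E-boxes and a RORE core, 250 bases before its start, chr3:23945871-23946120, plus strand: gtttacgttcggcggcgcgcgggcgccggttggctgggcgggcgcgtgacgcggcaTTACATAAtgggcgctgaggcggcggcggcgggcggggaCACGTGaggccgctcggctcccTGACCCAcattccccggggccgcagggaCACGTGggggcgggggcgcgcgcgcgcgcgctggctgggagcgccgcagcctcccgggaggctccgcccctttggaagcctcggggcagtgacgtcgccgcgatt

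The E-box was found in windows of PER1 and NR1D2 and in 7.26% of all 35116 promoters of the table. The variant E-box was found for PER2, CRY1, CRY2, CLOCK and NR1D1 and in 5.34% of all promoters. Either form was present in 7 of the 15 windows of the clock genes, against 12.2% of all promoters. The D-box was found for PER3 and NR1D2 and in 0.886% of all promoters, and the RORE core for CRY2, CLOCK, BMAL1 and NR1D2 and in 9.45%. BMAL1 held 2 matches of the RORE core in the same window. The match printed above reads TTGGTCA and begins 247 bases before the start. It was found because N in the searched pattern allows any base, and whether it acts as a RORE was not tested. The other reads TAGGTCA, begins 30 bases after the start and lies in a stretch that touches a BMAL1 exon. No letters of these elements were found in the DBP window, and the cyclic AMP response element TGACGTCA, present in 1.85% of all promoters, was found for none of the 10 genes. A match is a run of letters in a window and not a bound site. Of the stretches printed above, those of PER2 and CRY2 touch annotated exons of these genes and the others touch no annotated exon.

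Total counts per library ranged from 43469321 to 47119203, at which 3 counts correspond to between 0.0637 and 0.069 CPM. SFPQ had 22338, 23139 and 21753 counts in siCTRL and 3140, 3863 and 3151 in siSFPQ, a log2 fold change of -2.73 ± 0.05 (SE; edgeR quasi-likelihood test, adjusted p = 6.34e-30). The osteosarcoma label was checked against mesenchymal and osteoblast markers: VIM, COL1A1, SPARC and RUNX2 were read in every library at means from 58.9 to 2588 CPM, while COL1A2 lay at 0.96 CPM, BGLAP at 0.067 CPM and TWIST1 at 0 counts in all libraries. Of 6 epithelial markers, 3 rose (CDH1, KRT8 and KRT18) and the list summed to 14984 to 15744 counts in siCTRL libraries and to 34016 to 36943 in siSFPQ libraries. Of 3 endothelial markers 2 rose, with sums of 194 to 251 against 303 to 325 counts. The 4 haematopoietic markers summed to 28 to 43 counts in siCTRL and 12 to 23 in siSFPQ, the 2 hepatic markers to 7 to 12 and 11 to 13, with CD3E, HBB and ALB at no more than 5 counts in any library. CDKN2A and TERT, which U-2 OS cells are known not to express, summed to 0 to 6 counts in siCTRL and 0 to 1 in siSFPQ. The part of these marker changes in the values of the clock genes was not tested.

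Among the 10 clock genes, 3 rose in siSFPQ (PER1, PER2 and CRY2), 6 fell (PER3, CRY1, BMAL1, NR1D1, NR1D2 and DBP) and CLOCK did not pass the test. A gene is said to have risen or fallen where its adjusted p by edgeR's quasi-likelihood test (Benjamini-Hochberg, adjusted over all genes tested) was under 0.05. By this rule 44.6% of all genes tested were called, 22.4% higher and 22.1% lower in siSFPQ. The clock genes were well read, with means of 21.4 to 156 CPM, and among the 10216 genes with a mean of at least 10 CPM the call was made for 70.2%, 31.4% higher and 38.8% lower. The count of 9 in 10 therefore has to be read against a background in which most genes of such depth were called. With the fold threshold of the study's methods, an absolute log2 fold change over 1.5, edgeR called none of the 10 clock genes and DESeq2 called none, while 9 of them had an unadjusted p under 0.05 in either tool. That threshold was passed by 10.3% of all genes tested and by 3.45% of those with at least 10 CPM. The median absolute log2 fold change of the 10 clock genes was 0.37, against 0.22 for genes with at least 10 CPM and 0.43 for all genes tested, and their median log2 fold change was -0.23 against -0.03 and 0.02. Normalized counts, which are counts set relative to the effective size of each library at a common depth, did not overlap between conditions for 8 of the 10, against 74.8% of genes with at least 10 CPM.

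**Figure D1:**
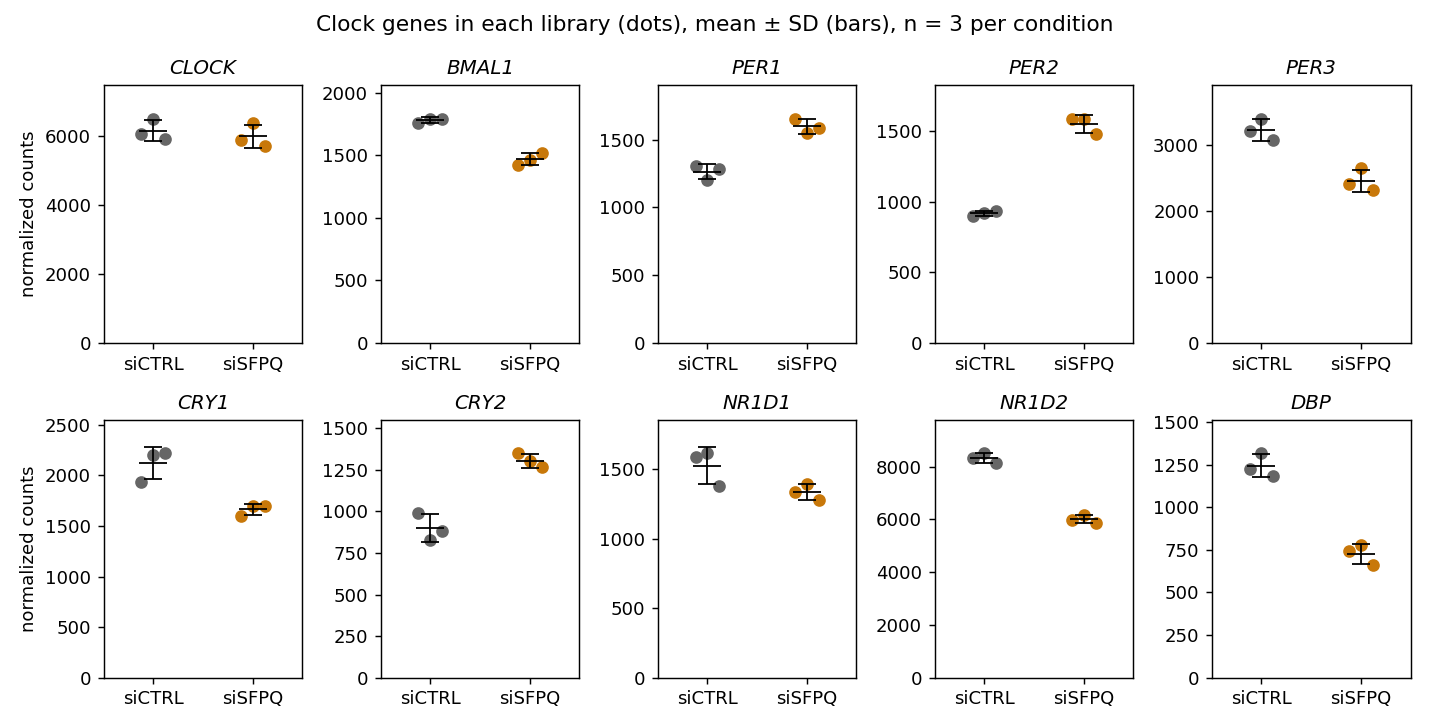
Normalized counts (vertical axes, starting at 0 and scaled for each gene) of the 10 clock genes in the siCTRL and siSFPQ libraries; dots are libraries, bars the mean ± SD of 3. CLOCK and NR1D1 are the genes whose conditions overlap, and PER2, at 902 to 938 normalized counts in siCTRL and 1478 to 1589 in siSFPQ, and DBP, at 1184 to 1316 and 664 to 777, lie farthest apart in relative terms.

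The activating pair of the loop changed unequally. CLOCK, a histone acetyltransferase and DNA-binding subunit of the pair, had 6051, 6507 and 5923 normalized counts in siCTRL and 5885, 6372 and 5726 in siSFPQ. The conditions overlapped, and the log2 fold change of -0.04 ± 0.04 (SE) did not pass the test (edgeR adjusted p = 0.505); it was 0.02 with library size alone in place of TMM. BMAL1, the partner subunit, had 1758, 1795 and 1795 normalized counts in siCTRL. In siSFPQ it had 1426, 1465 and 1518, so that every knock-down library lay under every control library. BMAL1 fell by 0.28 on the log2 scale (SE 0.05, edgeR adjusted p = 2.69e-05), which is a fall of 17.5%.

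The 3 PER genes, which encode the repressive period proteins, moved in both directions. PER1 had 1306, 1200 and 1279 normalized counts in siCTRL and 1654, 1550 and 1586 in siSFPQ. Its conditions did not overlap and it rose by 26.5%, a log2 fold change of 0.34 ± 0.05 (SE, edgeR adjusted p = 3.85e-06). PER2 had 902, 920 and 938 normalized counts in siCTRL and 1589, 1583 and 1478 in siSFPQ. It showed the largest rise of the 10 genes, with a log2 fold change of 0.75 ± 0.06 (SE, edgeR adjusted p = 5.02e-13) or 1.69-fold. PER3, which is less needed for rhythms than its paralogs in mice, had 3221, 3405 and 3075 normalized counts in siCTRL and 2419, 2649 and 2326 in siSFPQ. It was lower in every knock-down library and fell by 0.39 on the log2 scale (SE 0.05, edgeR adjusted p = 3.19e-08).

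The cryptochromes, the direct repressors of the CLOCK-BMAL1 pair, also moved in opposite directions. CRY1 had 1935, 2204 and 2218 normalized counts in siCTRL and 1599, 1696 and 1699 in siSFPQ. All knock-down libraries lay under the control libraries, and CRY1 fell by 0.35 on the log2 scale (SE 0.05, edgeR adjusted p = 1.83e-06). CRY2 had 994, 831 and 880 normalized counts in siCTRL and 1350, 1304 and 1265 in siSFPQ. It was higher in each knock-down library, with a log2 fold change of 0.53 ± 0.06 (SE, edgeR adjusted p = 1.83e-08), a rise of 44.9%.

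Both REV-ERB genes, which encode haem-binding repressors of BMAL1, were lower. NR1D2 had 8323, 8503 and 8123 normalized counts in siCTRL and 5990, 6182 and 5863 in siSFPQ. It fell without overlap by 0.47 on the log2 scale (SE 0.04, edgeR adjusted p = 1.99e-12), a fall of 27.7%. NR1D1 had 1589, 1616 and 1378 normalized counts in siCTRL and 1340, 1397 and 1280 in siSFPQ, and siCTRL replicate 3 lay under siSFPQ replicate 2. Its log2 fold change of -0.19 ± 0.06 (SE) passed the test (edgeR adjusted p = 0.00941). The call was lost with library size alone (-0.13, adjusted p = 0.0883) and without siCTRL replicate 1, siCTRL replicate 2, siSFPQ replicate 1 or siSFPQ replicate 3 (-0.18 to -0.15, adjusted p = 0.0531 to 0.0921, edgeR). Exons of NR1D1 and of THRA, a thyroid hormone receptor gene on the opposite strand, share 473 bases, 18.0% of the exonic length of NR1D1. THRA rose by a log2 fold change of 0.15 ± 0.04 (SE, edgeR adjusted p = 0.00471), and the strand setting of the counting is not given in the sources used here, so reads in the shared stretch are uncertain.

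DBP, a PAR bZIP activator and a widely used readout of CLOCK-BMAL1 activity, showed the largest fall of the 10. It had 1225, 1316 and 1184 normalized counts in siCTRL and 742, 777 and 664 in siSFPQ. The conditions lay far apart, and DBP fell by 0.77 on the log2 scale (SE 0.07, edgeR adjusted p = 1.46e-11), or by 41.4%. Its exons share 10.2% of their length with SPHK2 on the opposite strand, whose 4236 counts over all libraries compare with 5906 for DBP. The value of 10.7% for PER3 and UTS2 concerns a gene with 6 counts in all.

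The genes were also compared with each other inside each library, where a ratio of raw counts does not depend on normalization. For 6 pairs the ratios of the conditions did not overlap, and the exact permutation test over libraries (two-sided) gave p = 0.1 for each, the smallest that 3 against 3 libraries allow, and 0.1 after Benjamini-Hochberg adjustment over the 6. CRY1 counts were 1.95, 2.65 and 2.52 times CRY2 counts in siCTRL and 1.18, 1.30 and 1.34 times in siSFPQ. The difference in log2 ratio was -0.88 ± 0.15 (SE, n = 3 per condition), so the excess of CRY1 over CRY2 was smaller in all knock-down libraries. PER2 counts were 0.280, 0.270 and 0.305 of PER3 counts in siCTRL and 0.657, 0.598 and 0.635 in siSFPQ, a log2 difference of 1.15 ± 0.07, the largest of the 6. PER1 against PER2 changed by -0.41 ± 0.06 and PER1 against PER3 by 0.73 ± 0.11. NR1D1 against NR1D2 changed by 0.28 ± 0.06 and CLOCK against BMAL1 by 0.24 ± 0.07, the smallest of these differences.

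Levels between genes were compared per length, as RPKM, which divides a gene's reads by library size and by the length of the union of its exons. In siCTRL the order was led by NR1D2 at 31.4 ± 0.72 RPKM (SD, n = 3), followed by NR1D1 at 12.7 ± 1.1, CLOCK at 11.7 ± 0.58, CRY1 at 9.69 ± 0.73 and PER3 at 8.70 ± 0.44. BMAL1 followed at 5.62 ± 0.066, DBP at 4.19 ± 0.23, PER1 at 3.94 ± 0.17, CRY2 at 3.18 ± 0.29 and PER2 at 2.84 ± 0.055. The libraries of NR1D1 and CLOCK, of CRY1 and PER3 and of DBP and PER1 overlapped, so the order inside these pairs was not resolved. In siSFPQ, NR1D2 still led at 22.7 ± 0.61 RPKM, while DBP had become the lowest at 2.45 ± 0.20. PER2, the lowest in siCTRL, reached 4.78 ± 0.19 RPKM and overlapped with PER1 at 4.98 ± 0.17 and BMAL1 at 4.63 ± 0.14. With the longest annotated transcript in place of the exon union, levels in siCTRL moved by more than the SD for 9 of the 10, for BMAL1 to 10.1 RPKM, so the order depends on that length.

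Summed over paralogs, the PER and CRY levels moved less than their composition. The 3 PER genes together stood at 15.5, 15.7 and 15.2 RPKM in siCTRL and 16.6, 16.8 and 15.8 in siSFPQ. Every knock-down library lay above every control library, by a narrow margin (15.74 in siCTRL replicate 2 and 15.76 in siSFPQ replicate 3). PER3 made up 56.2 ± 1.8% (SD, n = 3) of that sum in siCTRL and 40.4 ± 1.6% in siSFPQ, and PER2 18.3 ± 0.64% and 29.2 ± 0.37%. The CRY genes together stood at 12.3, 13.0 and 13.2 RPKM in siCTRL and 12.1, 12.4 and 12.2 in siSFPQ, with the conditions overlapping. CRY2 made up 24.8 ± 3.1% of that sum in siCTRL and 37.7 ± 1.5% in siSFPQ. The REV-ERB sum was lower in every knock-down library, at 44.6, 45.5 and 42.1 RPKM in siCTRL against 33.7, 34.9 and 32.8 in siSFPQ. These sums and shares are descriptions of the libraries and were not tested beyond the ratios above. They use the length of the exon union, so they depend on that length as the order of levels does. The sums, with their narrow PER margin, depend on the TMM normalization too.

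**Figure D2:**
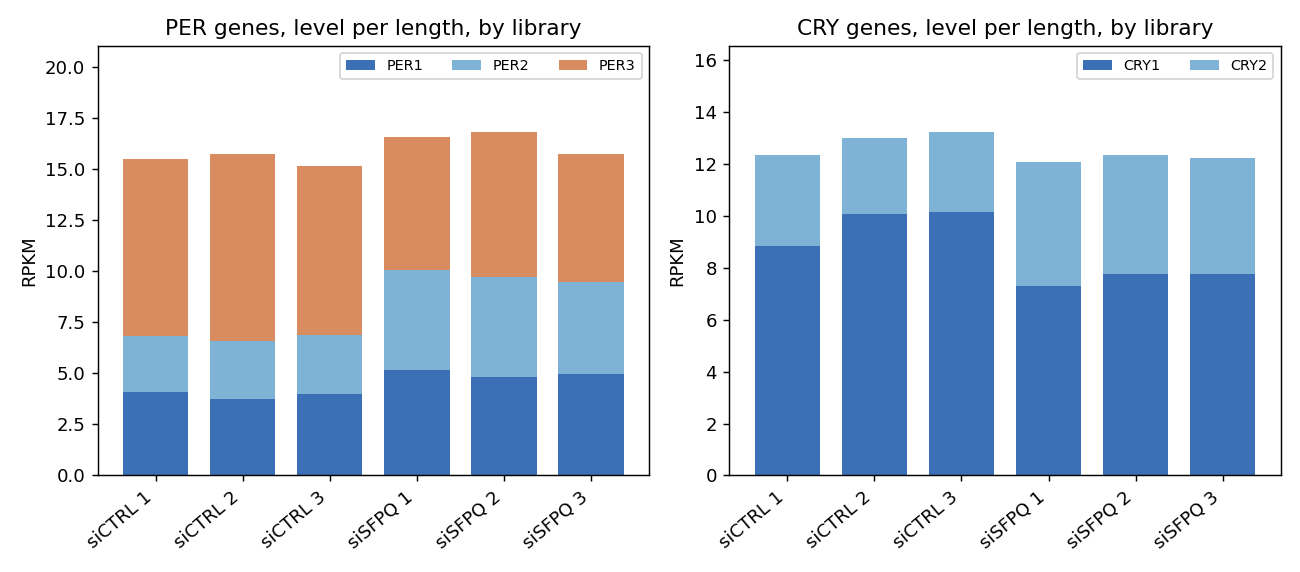
Level per length (RPKM, vertical axes from 0) of the PER genes (left) and the CRY genes (right), stacked in each of the 6 libraries. The PER stacks reach 15.2 to 15.7 RPKM in siCTRL and 15.8 to 16.8 in siSFPQ, and the CRY stacks 12.3 to 13.2 and 12.1 to 12.4. The PER3 and CRY1 parts shrink and the PER2 and CRY2 parts grow in siSFPQ.

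Genes of the second loop and close relatives of the core genes were examined as a list of 10, of which 2 rose, 7 fell and CIART did not pass the test; calls were made for 44.6% of all genes tested and for 70.2% of those with at least 10 CPM. Their median log2 fold change was -0.71, against 0.02 for all genes tested and -0.03 for genes with at least 10 CPM. Their median absolute log2 fold change was 0.71, against 0.43 and 0.22. NPAS2, a paralog of CLOCK that can pair with BMAL1, had 944, 774 and 825 normalized counts in siCTRL and 223, 224 and 232 in siSFPQ. It fell by 1.91 on the log2 scale (SE 0.09, edgeR adjusted p = 1.52e-18), while CLOCK itself did not pass the test. BMAL2, the paralog of BMAL1, fell by 0.31 (SE 0.05).

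RORA and RORB, which encode activators at ROREs, both fell. RORA had 1583, 1532 and 1483 normalized counts in siCTRL and 737, 763 and 688 in siSFPQ and fell by 1.07 on the log2 scale (SE 0.06, edgeR adjusted p = 2.68e-16). RORB, which is known mainly from brain and retina, had 165, 221 and 210 counts in siCTRL and 20, 22 and 24 in siSFPQ and fell by 3.17 (SE 0.19, edgeR adjusted p = 1.68e-15). This was the largest change on the list.

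The E-box repressors BHLHE40 and BHLHE41, also known as DEC1 and DEC2, went in opposite directions. BHLHE40 had 6522, 6558 and 6422 normalized counts in siCTRL and 6959, 6941 and 7137 in siSFPQ, a small rise (log2 fold change 0.11 ± 0.04, SE, edgeR adjusted p = 0.0155). BHLHE41 had 2934, 2876 and 2832 in siCTRL and 1277, 1259 and 1205 in siSFPQ and fell by 1.21 on the log2 scale (SE 0.05, edgeR adjusted p = 1.56e-20). CIART, another repressor of the pair, had 25, 21 and 21 counts in siCTRL and 21, 32 and 22 in siSFPQ, and its log2 fold change of 0.15 ± 0.35 (SE, edgeR adjusted p = 0.767) became -0.06 without siSFPQ replicate 2.

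The other regulators of D-boxes were changed as well. TEF, a PAR bZIP activator like DBP, had 2968, 2996 and 3020 normalized counts in siCTRL and 2350, 2286 and 2437 in siSFPQ and fell by 0.34 on the log2 scale (SE 0.04, edgeR adjusted p = 4.77e-08). HLF, the third activator of that family, had 59, 47 and 37 counts in siCTRL and 26, 10 and 11 in siSFPQ and fell by 1.60 (SE 0.35, edgeR adjusted p = 0.000301). NFIL3, the repressor at the same element, had 1248, 1138 and 1171 normalized counts in siCTRL and 1352, 1373 and 1392 in siSFPQ. It rose by a log2 fold change of 0.21 ± 0.06 (SE, edgeR adjusted p = 0.00252). Its conditions did not overlap, which was also true of 74.8% of genes with at least 10 CPM.

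**Figure D3:**
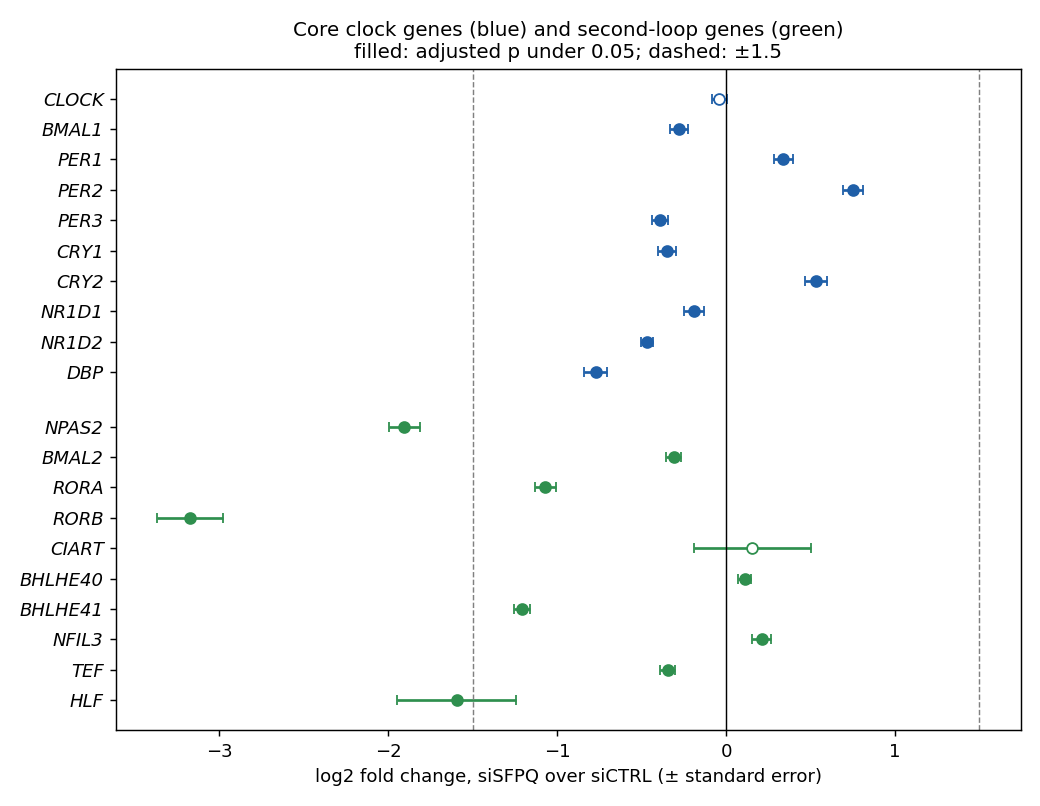
Log2 fold changes of siSFPQ over siCTRL (horizontal axis; points with standard errors from edgeR) for the 10 core clock genes in blue and the 10 genes of the second-loop list in green; filled points passed the test, and dashed lines mark the fold threshold of 1.5. The core genes lie between -0.77 and 0.75, while NPAS2, RORB and HLF lie beyond the lower dashed line.

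Of the kinases, phosphatases and ubiquitin ligases that act on clock proteins, 21 of 22 listed genes could be tested, and 5 rose, 7 fell and 9 did not pass the test, with a median log2 fold change of -0.05. The 12 calls compare with calls for 44.6% of all genes tested and 70.2% of those with at least 10 CPM. BTRC encodes a β-TrCP ligase subunit that marks PER proteins for degradation. It had 2003, 2161 and 2195 normalized counts in siCTRL and 462, 454 and 425 in siSFPQ. It fell by 2.25 on the log2 scale (SE 0.06, edgeR adjusted p = 6.66e-25), the largest change of that list. Its paralog FBXW11, on the same list, rose by a log2 fold change of 0.11 ± 0.04 (SE, edgeR adjusted p = 0.0245). FBXW11 stood at 16.1 RPKM in siCTRL, against 7.01 for BTRC, and is named after its value was seen. USP2, a deubiquitinase of clock proteins, rose by a log2 fold change of 0.52 ± 0.19 (SE, edgeR adjusted p = 0.0207), from 61.2 to 83.2 normalized counts to between 93.7 and 116.5. Exons of USP2 share 25.2% of their length with USP2-AS1 on the opposite strand, which had 186 counts over all libraries against 515 for USP2, so its reads are uncertain too. The USP2 call was lost with DESeq2 (adjusted p = 0.0611) and without siCTRL replicate 2, siCTRL replicate 3 or siSFPQ replicate 1 (0.49, 0.43 and 0.43 on the log2 scale). Rises on this list numbered 3 without siCTRL replicate 3 and 3 without siSFPQ replicate 2.

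Partners of PER complexes and corepressors, 21 genes without SFPQ itself, held 6 rises, 7 falls and 8 genes that did not pass, with a median log2 fold change of -0.03; the 13 calls in 21 lie between the shares of 44.6% and 70.2% called in all genes tested and in those with at least 10 CPM. PSPC1, the paralog of SFPQ and NONO, had 3271, 3262 and 2955 normalized counts in siCTRL and 6859, 7063 and 6873 in siSFPQ. It rose by a log2 fold change of 1.13 ± 0.04 (SE, edgeR adjusted p = 2.28e-21). NONO had a log2 fold change of 0.03 ± 0.03 (SE, edgeR adjusted p = 0.504), which became 0.09 and passed the test with library size alone (adjusted p = 0.0143). Without siSFPQ replicate 2, the rises on the list numbered 3.

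Among 9 coactivators of the CLOCK-BMAL1 pair, 5 fell, 1 rose and 3 did not pass the test, again beside 70.2% called among genes with at least 10 CPM. The gene that rose was KMT2D, by a log2 fold change of 0.21, and it is named after its value was seen. NCOA3, a p160 coactivator, had 4052, 4046 and 3551 normalized counts in siCTRL and 1267, 1417 and 1284 in siSFPQ and fell by 1.55 on the log2 scale (SE 0.05, edgeR adjusted p = 2.34e-22). KAT2B, the acetyltransferase PCAF, fell by 0.51 (SE 0.05, edgeR adjusted p = 1.27e-09). The single rise was lost without siCTRL replicate 3 and without siSFPQ replicate 2, and 3 and 2 rises were called without siCTRL replicate 2 and siSFPQ replicate 3. Of 7 genes of clock input, 3 rose, 3 fell and 1 did not pass, against the same share. CRTC1, a coactivator of CREB, had 1136, 1144 and 1026 normalized counts in siCTRL and 427, 423 and 398 in siSFPQ and fell by 1.41 (SE 0.07, edgeR adjusted p = 2.89e-17). CRTC2 and CRTC3, on the same list, rose by 0.38 and 0.12 (edgeR adjusted p = 5.76e-08 and 0.0178). They stood at 11.4 and 5.71 RPKM in siCTRL, against 3.46 for CRTC1, and are named after their values were seen. SIK1, a kinase that restrains CRTC proteins, rose by a log2 fold change of 0.55 ± 0.17 (SE, edgeR adjusted p = 0.00701), a call lost without siCTRL replicate 3 or siSFPQ replicate 1 (0.42 and 0.48 on the log2 scale).

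Of 16 clock-controlled output genes, 6 rose, 8 fell and 2 did not pass, with a median log2 fold change of -0.32, where 44.6% of all genes tested and 70.2% of those with at least 10 CPM were called. GPR176, an orphan receptor known from the central clock, had 2472, 2628 and 2615 normalized counts in siCTRL and 710, 719 and 808 in siSFPQ and fell by 1.79 on the log2 scale (SE 0.06, edgeR adjusted p = 2.72e-23). ARNT2, a bHLH-PAS factor, fell by 2.47 (SE 0.09), and RGS16, a regulator of G protein signalling, by 1.34 (SE 0.11). PPARA, a nuclear receptor of fatty acid metabolism, fell by 0.91 (SE 0.05) and POR, the electron donor of microsomal P450 enzymes, by 0.81 (SE 0.04). The genes named here were picked by the size of their change, and the 6 rises on this list were too small to be picked.

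Gene span, from start to end with introns, was set beside these changes. Of 2808 protein-coding genes spanning at least 100 kb, 26.5% were called with a log2 fold change under -1, against 2.27% of 10153 shorter genes. The medians of all genes in these groups were -0.35 and 0.03 (mean of at least 1 CPM). The core clock genes span 7.4 to 119 kb, and the 3 longest, CRY1, BMAL1 and CLOCK, had log2 fold changes of -0.35, -0.28 and -0.04. DBP, which fell most, is the shortest. From the clock lists, SFPQ and genes under a mean of 1 CPM were left out, among them HLF (60.2 kb, log2 fold change -1.60, 0.69 CPM). Of the genes kept, 7 of the 25 of at least 100 kb were called and lay under -1 (NPAS2, RORA, RORB, BTRC, NCOA3, GPR176 and ARNT2). The same held for 3 of the 66 shorter genes (BHLHE41, RGS16 and CRTC1), while 1 long gene, PSPC1, and no shorter gene lay over 1. Across these 91 genes, which share the same libraries, log2 fold change and log span had a Pearson's r of -0.29 and a Spearman's rho of -0.30, against -0.36 and -0.30 across 12961 protein-coding genes, as a description.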

How the data were processed

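RNA of 3 siCTRL and 3 siSFPQ libraries was sequenced (stranded mRNA kit, paired ends). Per the study's methods, the authors checked reads with FastQC, used STAR 2.7.9a with the Ensembl GRCh38 annotation and deposited raw counts of reads per gene, not normalized. The 29022 genes reaching 10 counts over the libraries entered the two-sided quasi-likelihood test of edgeR 4.0.16 (R 4.3.3) after TMM normalization, with Benjamini-Hochberg adjustment. The standard error of a log2 fold change was derived from its F statistic. Positions and exon lengths came from GENCODE release 44 (99.67% of identifiers matched), promoters from RefSeq (GRCh38.p14). The clock genes, the lists and the tests were chosen with earlier results of these data known. Genes named are SFPQ, NONO, the 10 clock genes, the second-loop list and, from each other list, at most 5 genes with the largest absolute log2 fold change among those called, of at least 0.5, with at least 1 CPM and no overlap; 1 gene of the second-loop list and 1 marker are not reported here and were left out of their lists' counts. Alternatives were filterByExpr or no filter, RLE factors or library size alone, DESeq2 1.42.0, the replicate block and each library left out. On simulated counts of 28129 genes, edgeR called 80 of 100 genes changed by 0.5 (log2) and 100 of 100 changed by 1.5, with 8 false calls. All other genes were left unchanged there, while 44.6% of the genes tested were called in the data. The number of false calls therefore does not carry over to the data. Replicates were checked for repeated libraries and differed by 3.77 to 5.49 times sampling noise. The limit given by 3 counts covers counting error only, while SE and SD include the spread between libraries.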

Additional observations from a re-analysis of the deposited data

How the results depend on the processing

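Every call among the core genes other than that of NR1D1 kept its direction and its side of the threshold under the 12 alternatives run for each gene, and CLOCK passed in none. CLOCK had a log2 fold change of 0.024 with library size alone and of -0.10 to 0.0029 with a library left out. NR1D1 stood at -0.13 with library size alone and at -0.26 to -0.15 with a library left out, and CIART ranged from -0.060 to 0.26 with a library left out. Library size alone moved the median log2 fold change of genes with at least 10 CPM from -0.03 to 0.03, and calls over all genes from 6514 higher and 6421 lower to 7622 and 5502. With an absolute log2 fold change over 1 also required, 0 core genes were called higher and 0 lower by edgeR. Rises among coactivators numbered 3 with library size alone, 0 with DESeq2 and 0 to 3 with a library left out. Falls among PER partners, SFPQ included, numbered 5 with library size alone. Rises numbered 3 to 5 among kinases and ligases and 3 to 6 among PER partners with a library left out. The causes of these shifts were not tested.

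No clear pairing of samples by replicate number was seen: the deviations of same-numbered libraries correlated at -0.025 to 0.071 and those of other pairs at -0.072 to 0.036. With 3 libraries per condition this check cannot exclude a pairing. With the replicate block, PER2 had a log2 fold change of 0.75 and DBP of -0.77, no core gene's call changed, and 3 coactivators rose. Not every siSFPQ library correlated best with its own number.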

Other observations

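Promoter windows were also found for the 10 genes of the second-loop list, and the E-box CACGTG was present in those of CIART, BHLHE40, BHLHE41 and TEF. CIART had 3 of them, at 129, 71 and 57 bases before its start, and a log2 fold change of 0.15 that did not pass the test. BHLHE40 had 1 at 245 bases and rose by 0.11, BHLHE41 had 1 at 48 bases and fell by 1.21, and TEF had 1 in each of 2 windows, at 195 and 193 bases, and fell by 0.34 on the log2 scale. Among the core genes, PER1 with an E-box rose and NR1D2 with 2 fell. Genes with this element stood on both sides of 0. So did genes with the variant form, where PER2 and CRY2 rose, CRY1 and NR1D1 fell and CLOCK did not pass the test. PER3, BMAL1 and DBP, with neither form in their windows, fell. Whether these elements bear on the changes was not tested.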
